A study of Mus musculus with 8 samples.

Results

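Genes of the Ras, MAP kinase and adaptor cascade were followed in striatal cells that overexpressed Bcl11b. The members were 52 genes chosen by name, from the adaptors at growth factor receptors to the kinases below the MAP kinases, and every probe carrying one of these symbols was taken. Of the 52 genes, 49 were found on 80 of the 25697 probes and among 18120 symbols, and no probe carried the symbol Braf, Map3k5 or Sos2. STHdh cells are a wild-type, conditionally immortalized mouse line made from embryonic striatum. In the Bcl11b group 4 cell sets were transfected with a pcDNA3.1 plasmid carrying Bcl11b cDNA, and the control group of 4 sets received the empty pcDNA3.1 plasmid (mock), which the labels also call wild-type. By this description both groups went through the same transfection, although the study's text also calls the control cells untransfected. RNA was taken 2 days after transfection. Each set was hybridized to 1 Illumina MouseRef-8 v2 array, and the comparison asks which transcripts differ when this transcription factor is in excess. The sets are described as different sets of transfected cells of one line. The spread between arrays is thus one between such sets, in which transfection, RNA preparation and array cannot be told apart.

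In this cascade a ligand-bound receptor tyrosine kinase is phosphorylated and recruits adaptor proteins, which bring nucleotide exchange factors to Ras-family GTPases at the membrane. Active Ras engages the Raf kinases, and a relay of MAP kinase kinase kinases (MAP3K), MAP kinase kinases (MAP2K) and MAP kinases (MAPK) carries the signal to kinases and transcription factors. Parallel branches end in ERK, JNK, p38 or ERK5, and in striatal neurons the ERK branch is a known route of neurotrophin and dopamine signals to the nucleus. The relay works through phosphorylation, which an mRNA array does not measure.

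Bcl11b is a zinc finger transcription factor. The start regions of 4 members are therefore shown: Gab1, Irak4 and Plcg2 had the smallest p-values among detected members, and Mapk9 is a lower member whose window held a searched hexamer. Each is the RefSeq sequence of the 250 bases before the start on mouse build GRCm38.p6, read 5′ to 3′ on the gene's strand. Capitals mark a match to a searched hexamer.
Gab1, chr8:80880520-80880769, minus strand: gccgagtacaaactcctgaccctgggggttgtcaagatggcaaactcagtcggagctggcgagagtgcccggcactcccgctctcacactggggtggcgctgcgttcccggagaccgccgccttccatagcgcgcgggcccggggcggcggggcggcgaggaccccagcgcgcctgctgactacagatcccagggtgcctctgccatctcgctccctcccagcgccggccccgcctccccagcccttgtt
Plcg2, chr8:117498025-117498274, plus strand: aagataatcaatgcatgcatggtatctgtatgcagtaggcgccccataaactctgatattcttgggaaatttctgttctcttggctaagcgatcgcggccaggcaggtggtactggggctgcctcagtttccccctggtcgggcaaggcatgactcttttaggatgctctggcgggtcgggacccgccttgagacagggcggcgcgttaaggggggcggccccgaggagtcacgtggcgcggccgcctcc
Irak4, chr15:94543410-94543659, plus strand: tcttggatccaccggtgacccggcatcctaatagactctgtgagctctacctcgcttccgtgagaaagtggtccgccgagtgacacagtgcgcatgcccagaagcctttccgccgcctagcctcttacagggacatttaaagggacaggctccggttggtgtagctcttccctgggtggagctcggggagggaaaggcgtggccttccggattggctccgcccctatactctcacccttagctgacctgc
Mapk9, chr11:49846501-49846750, plus strand: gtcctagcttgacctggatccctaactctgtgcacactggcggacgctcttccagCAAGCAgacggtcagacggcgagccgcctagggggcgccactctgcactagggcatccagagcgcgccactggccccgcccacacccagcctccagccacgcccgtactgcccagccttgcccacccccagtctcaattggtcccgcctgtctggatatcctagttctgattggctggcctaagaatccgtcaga
Of the hexamers that the study derived from Bcl11b-bound regions, 3 were searched on both strands, first ACCACA, then TGCTTG and then AGTGCT. The study's further motifs from 5′ regions, AG[AT]GTG and GGATCA, were not searched, so a window without capitals can still hold them. In Mapk9 the capitals CAAGCA are the reverse complement of TGCTTG and begin 195 bases before the start. The other 3 windows hold none of the 3 searched hexamers. Of the 12 windows of the 8 lower members described below, 3 held a searched hexamer (in Mapk9, Pik3r1 and Rps6ka1). Over the 67 windows of the 49 members that the RefSeq table lists, 28.4% held at least 1 searched hexamer, against 34.0% of all 32851 windows of this length. ACCACA, whose reverse complement TGTGGT overlaps the core letters of the Runx motif, was in 16.4% of the members' windows and in 14% of all. TGCTTG was in 4.48% against 13.7%, and AGTGCT in 11.9% against 12.6%. The members' windows also had more G and C, with a median of 62.0% against 52.4%, and the part of base content in these shares was not tested.

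Signals are log2 values after quantile normalization, in which normalized signals under 1 were set to 1. A probe was called detected on an array when its deposited detection p-value was under 0.01. A gene with several probes is described by its brightest probe over all 8 arrays. Before normalization the mock arrays were brighter, with median signals from 31.6 to 53.9 against 20.1 to 30.2 on the Bcl11b arrays. Signals of different probes do not give relative transcript levels, and every difference is one between groups on the same probe. The single Bcl11b probe was detected on none of the 8 arrays, transfected sets included. Where in the transcript this probe lies is not given in the sources used here, so it does not check the labels. Of the marker lists, the neural progenitor list had 3 of 4 genes detected, with Nes, Vim and Sox2 on all arrays. The neuronal list had 3 of 7, with Stmn2 on all 8 arrays, Nefm on 3, Syp on 1 and Snap25 and Tubb3 on none. Of the 7 medium spiny neuron markers, Ppp1r1b, Drd1a and Drd2 were among the 6 detected on none, whereas Pde10a was detected on 3 mock arrays and 1 Bcl11b array, with a log2 difference of -0.81. Of the 4 astrocyte markers Slc1a3 was detected, on 3 mock arrays and 1 Bcl11b array, while Gfap and Aqp4 were not, and none of the 3 oligodendrocyte markers was. Of the 5 microglial markers Cd68 was detected on 2 Bcl11b arrays and no mock array, and Aif1, Csf1r, Cx3cr1 and Itgam on none. Mesenchymal markers were detected for 4 of 6 genes, with Acta2, Col1a1 and Pdgfrb on all arrays. Pdgfrb had a log2 difference of -0.49 with all Bcl11b arrays below the mock arrays, Col3a1 one of -0.87, Col1a1 one of 0.22 and Acta2 one of -0.040. Pde10a and Pdgfrb passed the rule of a 25% excess used below for the members, as lower, and Cd68 as higher. Summed over each list, the medium spiny neuron markers gave a normalized signal of 208 to 242 on the mock arrays and 158 to 187 on the Bcl11b arrays, the neuronal markers 1043 to 1751 and 1065 to 1239, and the astrocyte markers 47.9 to 180.1 and 27.1 to 97.9. The microglial sums were 41.7 to 77.7 and 73.9 to 150.0, those of progenitor markers 23145 to 27008 and 19430 to 27229, and the mesenchymal sums, most of which came from Acta2, 13895 to 16715 and 14580 to 15152. The medium spiny neuron, astrocyte and microglial sums each hold 1 detected gene, on 4, 4 and 2 of the 8 arrays. Their other genes were detected on no array, so no change is read from these sums. The part of these markers in the results on the cascade was not tested. In bulk RNA, fewer cells of a type and less RNA per cell cannot be told apart.

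Most of the cascade was expressed in these cells. Of the 49 members on the array, 40 were detected on at least 1 array and 37 on all 8. The brightest probes of Gab2, Plcg1, Sos1, Nf1, Ksr1, Map3k4, Map2k6, Mapk10 and Mapkapk5 were detected on none, and no fold is given for them. Mapk7, which encodes ERK5, was detected on 1 mock array only and no Bcl11b array, and its bound allowed no fold. The other 39 members could be compared on both sides.

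A few adaptors and kinases passed a rule as lower in Bcl11b-transfected cells, and no member was higher by either rule on its brightest probe. At the adjusted threshold the share of members was near that of all detected genes. Gab1 alone passed an adjusted p-value of 0.10 in limma, which is 1 of 40 detected members (2.5%), beside 1.92% of the 8557 genes detected on at least 1 array and 0.981% of all probes (0.627% lower and 0.354% higher). At an unadjusted p-value under 0.05 with the brighter group at least 25% above the other (the 25% rule), 8 of 40 members (20%) were lower, against 11.9% of all genes so detected. These were Gab1, Plcg2, Pik3r1, Map3k11, Irak4, Mapk9, Rps6ka1 and Mknk2. None was higher, against 3.89% of all genes, and none reached an unadjusted p-value under 0.05 upward at any size, against 4.76%, while 12 of 40 (30%) did so downward, against 14.4% of all genes. The members were chosen with earlier results of these data known, and some are genes that the study named for a change on these arrays. The shares are therefore a description and not independent evidence. The 4 Bcl11b arrays lay wholly below the mock arrays for 4 of the 40 (10%), against 8.18% of all genes, and wholly above for none, against 2.63%. Across the 39 members the log2 difference ran from -0.81 to 0.63 with a median of -0.060, beside -0.041 over the 8028 genes and -0.010 over the 10918 probes detected in both groups. Of the 39, 25 were lower and 14 higher after quantile normalization, beside 4442 lower and 3586 higher of the 8028 genes. The members' split turned to 17 lower and 22 higher when arrays were scaled to their medians instead. The median of all probes detected in both groups was then 0.075, and the member median of 0.029 lay 0.046 below it. With that scaling 4 members passed the 25% rule as lower (Gab1, Plcg2, Pik3r1 and Irak4) and 2 as higher (Map2k3 and Mapk6). Of all probes detected on at least 1 array 7.23% passed as lower and 7.77% as higher.

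**Figure D1:**
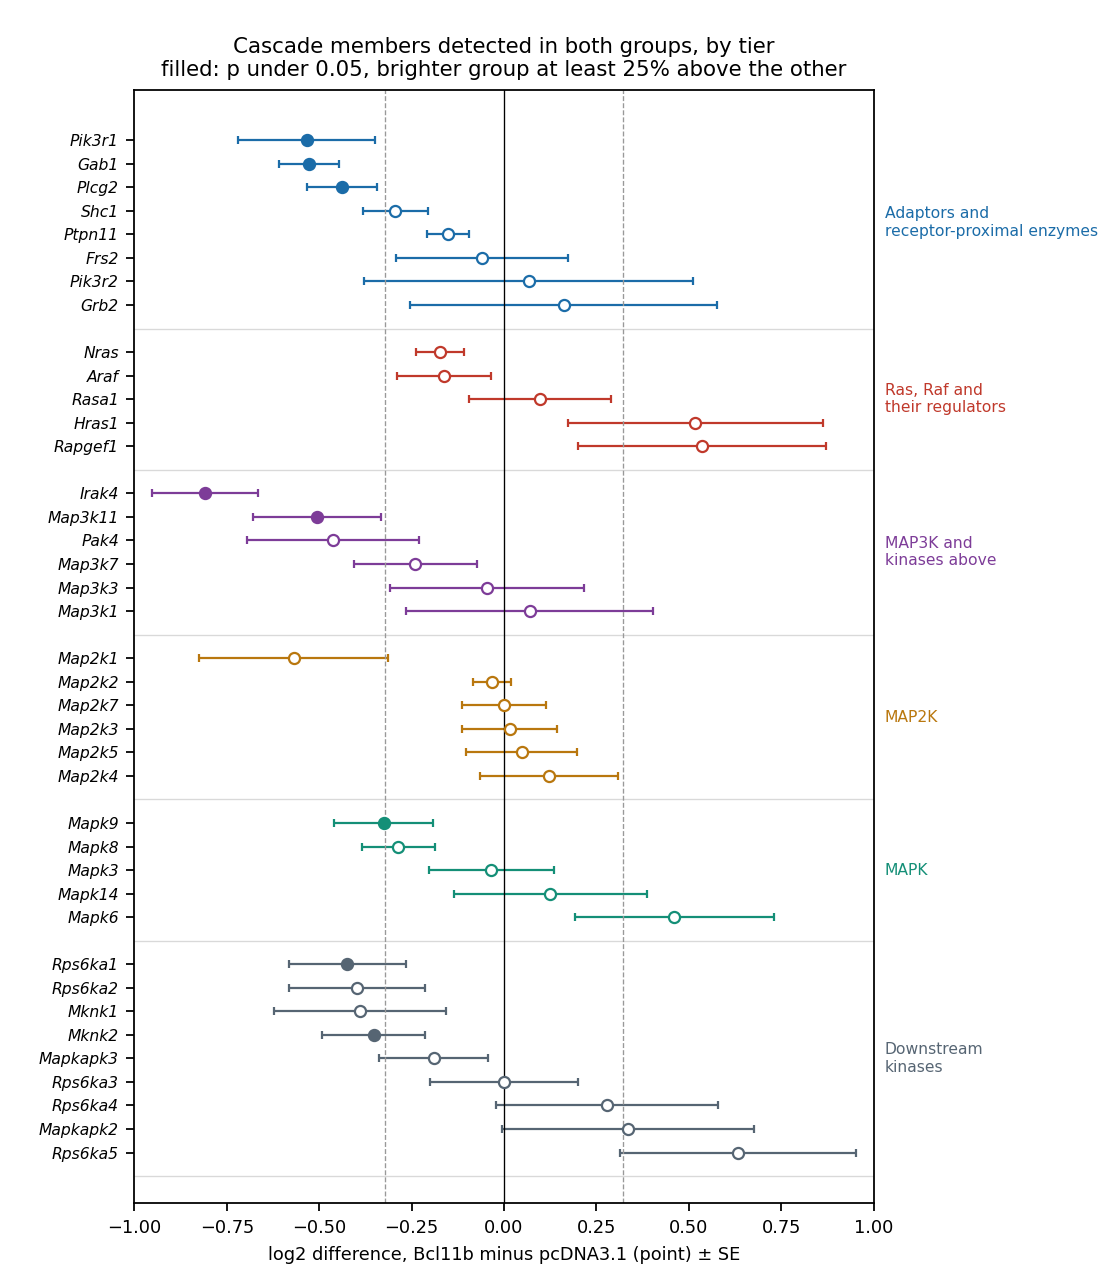
Log2 difference (Bcl11b minus pcDNA3.1, horizontal axis, point ± SE) of the 39 members detected in both groups, in 6 tiers from receptor-proximal proteins at the top to downstream kinases at the bottom; filled points passed the 25% rule, and dashed lines mark a 25% excess of the brighter group. The 8 filled points all lie left of 0, with 3 among the adaptors, 2 among the MAP3K and kinases above, 1 among the MAPK, 2 among the downstream kinases and none among the Ras/Raf genes or the MAP2K.

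Among the adaptors and receptor-proximal enzymes, 3 of the 8 detected genes were lower by the 25% rule (11.9% of all detected genes) and 5 had an unadjusted p-value under 0.05, all downward (14.4% of all). The median log2 difference of these 8 genes was -0.22 after quantile normalization and -0.0053 with arrays scaled to their medians, where 4 were lower and 4 higher. Gab1, a docking protein that gathers Grb2, the phosphatase Shp2 and the p85 subunit of PI 3-kinase at activated receptors, had log2 signals of 9.82, 9.80, 10.08 and 10.05 on mock arrays 1 to 4 and 9.41, 9.47, 9.30 and 9.46 on Bcl11b arrays 1 to 4. The Bcl11b values spanned less than the gap that separated them from the mock values, and the groups did not overlap. Gab1 was thus 1.44-fold lower, a log2 difference of -0.53 (SE 0.080, adjusted p = 0.0701 in limma). Its difference stayed between -0.58 and -0.48 whichever array was left out, whereas the adjusted p-value was 0.0528 without mock replicate 2 and between 0.115 and 0.212 without any other array.

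Plcg2, a phospholipase C that cleaves membrane phosphoinositides, had log2 signals of 9.18, 9.17, 9.51 and 9.51 on the mock arrays and 8.92, 8.88, 8.94 and 8.87 on the Bcl11b arrays. All Bcl11b arrays lay below the mock arrays, and they differed from each other far less (SD 0.031) than the mock arrays did (SD 0.19). The log2 difference was -0.44 (SE 0.094, adjusted p = 0.174). Pik3r1 encodes the p85 alpha regulatory subunit of PI 3-kinase, and its log2 signals were 9.35, 10.08, 9.94 and 10.01 on the mock arrays and 9.26, 9.19, 9.20 and 9.59 on the Bcl11b arrays. Mock replicate 1 lay among the Bcl11b values, so the groups overlapped. The log2 difference was -0.53 (SE 0.19, adjusted p = 0.379). Pik3r1 no longer passed, at -0.51 to -0.46, without any single one of mock replicates 2, 3 and 4 and Bcl11b replicates 1, 2 and 3.

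A smaller difference was seen for Shc1, the adaptor that couples receptors to Grb2. Its log2 signals were 12.69, 12.92, 12.87 and 13.07 on the mock arrays and 12.53, 12.64, 12.50 and 12.70 on the Bcl11b arrays, so that only mock replicate 1 and Bcl11b replicate 4 overlapped. The log2 difference of -0.29 (SE 0.088, adjusted p = 0.310) was just short of the 25% rule, and with arrays scaled to their medians it was -0.017. Shc1 passed the rule without mock replicate 1, at -0.37, and without Bcl11b replicate 4, at -0.33. Ptpn11 encodes Shp2, a tyrosine phosphatase needed for full Ras activation. On its brightest probe the mock arrays gave 13.16, 13.05, 13.01 and 12.99 and the Bcl11b arrays 12.85, 13.04, 12.84 and 12.86, a log2 difference of -0.15 (SE 0.058, adjusted p = 0.431). Bcl11b replicate 2 lay within the mock range, and with arrays scaled to their medians the difference turned to 0.16. Of the others, Frs2, which serves fibroblast growth factor receptors, differed by -0.06, Pik3r2, the p85 beta subunit, by 0.067 and Grb2 by 0.16 on the log2 scale, and none of them passed. Grb2, the adaptor that carries Sos to the receptor, was detected on 2 mock arrays and 1 Bcl11b array only.

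**Figure D2:**
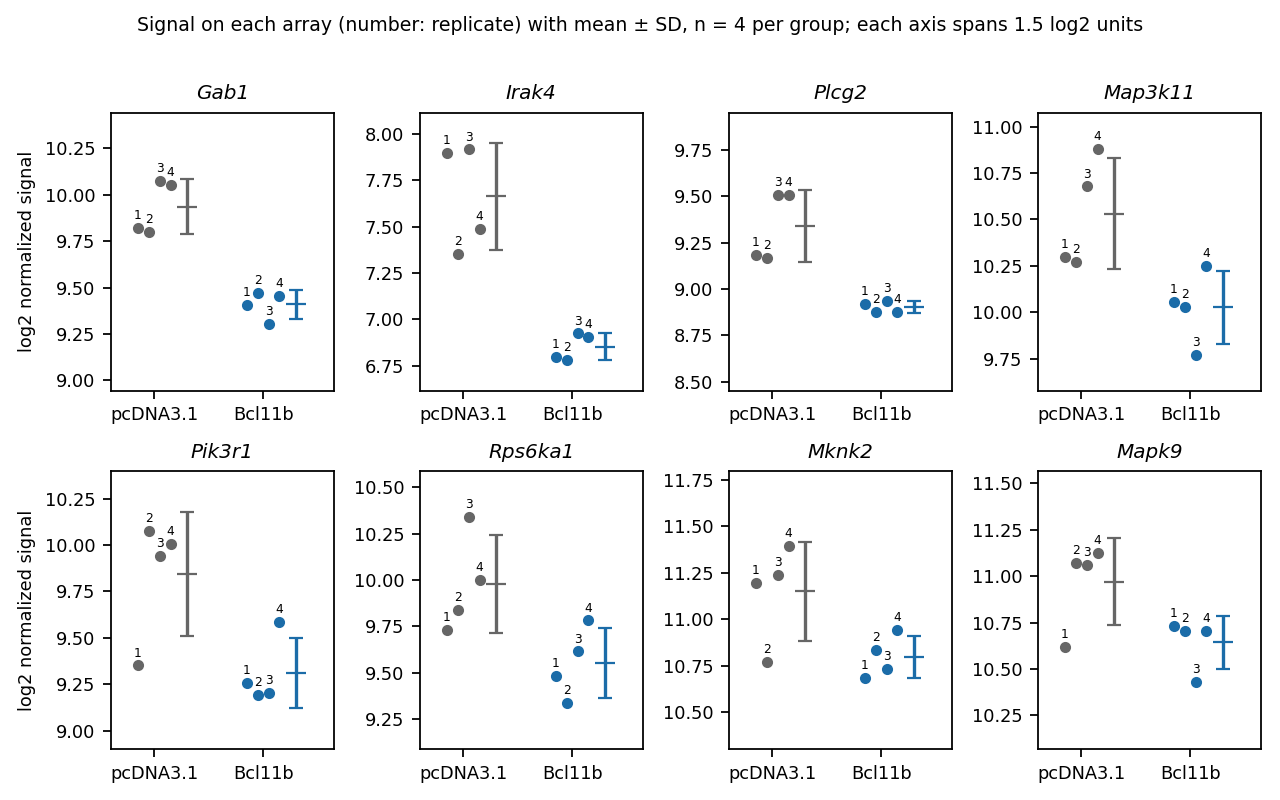
Log2 normalized signal (vertical axis) on each array for the 8 lower members, with the replicate number at each point and the mean ± SD (n = 4) beside each group. For Gab1, Irak4, Plcg2 and Map3k11 every Bcl11b point lies below every mock point, whereas in Pik3r1, Rps6ka1, Mknk2 and Mapk9 at least 1 mock point falls within the Bcl11b range.

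The Ras and Raf tier contained no member past the 25% rule. Of its 5 detected genes 2 were lower and 3 higher, with a median log2 difference of 0.096, or 0.35 with arrays scaled to their medians. Nras, a Ras GTPase, had log2 signals of 13.24, 13.20, 13.11 and 13.08 on the mock arrays and 12.91, 12.997, 12.89 and 13.14 on the Bcl11b arrays. Only Bcl11b replicate 4 reached the mock range, and the log2 difference was -0.17 (SE 0.066, adjusted p = 0.431). With arrays scaled to their medians Nras was at 0.15, so its direction depended on the scaling. For Hras1, another Ras GTPase, the mock arrays were spread from 7.49 to 9.06 and the Bcl11b arrays from 8.68 to 9.27, and the difference of 0.52 (SE 0.35, adjusted p = 0.731) was within that spread.

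Rapgef1 encodes an exchange factor for the Ras relative Rap1. Its log2 signals were 10.80, 11.82, 10.47 and 11.12 on the mock arrays and 11.28, 11.30, 11.70 and 12.07 on the Bcl11b arrays. Mock replicate 2 exceeded all but Bcl11b replicate 4. The difference of 0.53 (SE 0.34) did not pass (adjusted p = 0.702), whereas without mock replicate 2 it was 0.80 and passed the 25% rule. In that fit 13.5% of all probes detected on at least 1 array passed as lower and 7.38% as higher. With all 8 arrays the shares were 10.5% and 4.32%. They apply to every later result without mock replicate 2. Rasa1, a GTPase-activating protein that switches Ras off, differed by 0.096 and the Raf kinase Araf by -0.16, neither past the threshold. Sos1, the main Ras exchange factor at receptors, was not well above background on any array. Its log2 signals were 5.62, 4.77, 5.99 and 6.14 on the mock arrays and 4.40, 4.51, 4.14 and 3.77 on the Bcl11b arrays, and although the groups did not overlap (adjusted p = 0.201) no fold is given for a probe at this level. The same holds for Map3k4 in the next tier, with an adjusted p = 0.324 and no array on which it was detected.

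The largest decrease among detected members was found in Irak4, placed here with the MAP3K because it acts with Myd88 at interleukin-1 and Toll-like receptors above TAK1. Log2 signals of Irak4 were 7.90, 7.35, 7.92 and 7.48 on the mock arrays and 6.80, 6.78, 6.92 and 6.91 on the Bcl11b arrays. The groups did not overlap, and the Bcl11b arrays were tightly grouped (SD 0.073, against 0.29 for the mock arrays). Irak4 was 1.75-fold lower, a log2 difference of -0.81 (SE 0.14), and its adjusted p-value of 0.106 was just outside the threshold. Without 1 array it was 0.048 for mock replicate 2 and between 0.156 and 0.294 for the others.

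Map3k11 encodes MLK3, a MAP3K of the JNK branch. On the mock arrays its log2 signals were 10.30, 10.27, 10.68 and 10.88, and on the Bcl11b arrays 10.06, 10.03, 9.77 and 10.25. Every Bcl11b array was lower, by a narrow margin, with a log2 difference of -0.51 (SE 0.17, adjusted p = 0.374). It missed the 25% rule at -0.45 without mock replicate 3, at -0.51 without Bcl11b replicate 2 and at -0.42 without Bcl11b replicate 3. Pak4, a kinase activated by Cdc42, had log2 signals of 9.95, 9.38, 10.46 and 10.22 on the mock arrays and 9.67, 9.58, 9.39 and 9.51 on the Bcl11b arrays. Mock replicate 2 lay below the Bcl11b arrays while the other mock arrays lay above them. The difference of -0.46 (SE 0.23) did not pass (adjusted p = 0.599), and without mock replicate 2 it was -0.68 and passed the 25% rule. Map3k3, which feeds the ERK5 branch, gave 10.53, 11.21, 10.56 and 10.77 on the mock arrays and 10.23, 10.55, 10.86 and 11.26 on the Bcl11b arrays, a difference of -0.046 within wide overlap. Map3k7 (TAK1) differed by -0.24 and Map3k1 (MEKK1) by 0.069, neither past the threshold. Without mock replicate 2 Map3k7 was at -0.37 and passed the 25% rule. The median over the 6 detected genes of this tier, Irak4 and Pak4 included, was -0.35.

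At the MAP2K tier no gene passed, and 5 of the 6 detected genes differed by between -0.033 and 0.12 on the log2 scale. Map2k1 was the exception in size. It encodes MEK1, which phosphorylates ERK, and its log2 signals were 8.83, 8.23, 8.05 and 8.83 on the mock arrays and 7.87, 8.27, 7.48 and 8.04 on the Bcl11b arrays. Mock replicates 1 and 4 stood above all Bcl11b arrays and mock replicates 2 and 3 did not, and the difference of -0.57 (SE 0.26) had an adjusted p = 0.523. It passed the 25% rule without mock replicate 3, at -0.71, and without Bcl11b replicate 2, at -0.68. Map2k7, an activator of JNK, had log2 signals of 9.36, 9.32, 9.32 and 9.09 on the mock arrays and 9.21, 9.56, 9.22 and 9.10 on the Bcl11b arrays, with a difference of -0.00083 (SE 0.11). Map2k3, which acts on p38, gave 13.10, 13.18, 12.97 and 13.17 on the mock arrays and 12.99, 12.91, 13.11 and 13.47 on the Bcl11b arrays, a difference of 0.015 (SE 0.13), or 0.33 and past the 25% rule with arrays scaled to their medians. For both genes the groups overlapped. Map2k2 (MEK2) differed by -0.033 (SE 0.051), Map2k4 by 0.12 and Map2k5, the ERK5 activator, by 0.048, which left a tier median of 0.0072, or 0.13 with arrays scaled to their medians.

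Among the MAP kinases, 2 of the 6 detected genes (33.3%) had unadjusted p-values under 0.05 downward, against 14.4% of all detected genes. These were the 2 detected JNK genes. Mapk9, which encodes JNK2, had log2 signals of 10.62, 11.07, 11.06 and 11.13 on the mock arrays and 10.73, 10.71, 10.43 and 10.71 on the Bcl11b arrays. Mock replicate 1 was lower than 3 of the Bcl11b arrays, and Bcl11b replicate 3 was the lowest of all. The difference of -0.33 (SE 0.13, adjusted p = 0.474) was at the edge of the 25% rule. It passed without mock replicate 1, at -0.44, and missed it without any other single array, at -0.35 to -0.25. Mapk8, which encodes JNK1, lay between 8.35 and 8.62 on the mock arrays and between 8.07 and 8.41 on the Bcl11b arrays, a difference of -0.29 (SE 0.099, adjusted p = 0.375) short of the 25% rule. It passed without mock replicate 2 (-0.34) or 4 (-0.32) and without Bcl11b replicate 2 (-0.35). The probe of the third JNK gene, Mapk10, known for its expression in neurons, was not well above background on any array, with log2 signals of 3.08, 0, 0 and 2.25 on the mock arrays and 0 on all Bcl11b arrays. Mapk6 encodes the atypical kinase ERK3 and was at 11.96, 13.03, 12.10 and 12.65 on the mock arrays and 12.76, 12.84, 12.72 and 13.26 on the Bcl11b arrays. Mock replicates 1, 3 and 4 lay below all Bcl11b arrays and mock replicate 2 above 3 of them, and the difference of 0.46 (SE 0.27) did not pass (adjusted p = 0.671). Without mock replicate 2 it was 0.66 and passed the 25% rule, as it did at 0.72 with arrays scaled to their medians. Mapk3 (ERK1) differed by -0.035 (SE 0.17) and Mapk14 (p38 alpha) by 0.13 (SE 0.26).

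Of the kinases below the MAPK, 2 of 9 detected genes (22.2%) were lower by the 25% rule, against 11.9% of all detected genes. By sign alone 6 were lower and 3 higher. Rps6ka1 encodes RSK1, a ribosomal S6 kinase that ERK activates, and its log2 signals were 9.73, 9.84, 10.34 and 10.00 on the mock arrays and 9.48, 9.33, 9.61 and 9.78 on the Bcl11b arrays. The highest Bcl11b array exceeded only the lowest mock array. The log2 difference was -0.42 (SE 0.16, adjusted p = 0.421), and it missed the 25% rule, at -0.45 to -0.30, without mock replicate 3 or 4 or any of Bcl11b replicates 1 to 3. Mknk2 encodes MNK2, which phosphorylates the translation factor eIF4E, and had log2 signals of 11.20, 10.77, 11.24 and 11.39 on the mock arrays and 10.68, 10.83, 10.73 and 10.94 on the Bcl11b arrays. Mock replicate 2 fell among the Bcl11b values and the other mock arrays above them. The difference of -0.35 (SE 0.14, adjusted p = 0.457) was larger without mock replicate 2, at -0.48, and missed the 25% rule, at -0.36 to -0.27, without any of mock replicates 1, 3 and 4 or Bcl11b replicates 1 to 3.

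Rps6ka5 encodes MSK1, a nuclear kinase of histone H3 and CREB, and gave the largest positive difference among the brightest probes of detected members. Its log2 signals were 6.29, 7.59, 6.88 and 7.35 on the mock arrays, of which 3 were detected, and 7.46, 7.37, 7.72 and 8.09 on the Bcl11b arrays, all detected. Mock replicate 2 again lay among the Bcl11b values, and the difference of 0.63 (SE 0.32) did not pass (adjusted p = 0.601). Without that array it was 0.83 and passed the 25% rule. Rps6ka4 (MSK2) gave 11.11, 12.03, 10.69 and 11.57 on the mock arrays and 11.49, 11.58, 11.48 and 11.97 on the Bcl11b arrays, a difference of 0.28 within the mock range. Rps6ka2 (RSK3) was at 8.10 to 8.18 on all Bcl11b arrays and spread from 8.06 to 8.84 on the mock arrays, with a difference of -0.40 (SE 0.18, adjusted p = 0.543), and passed the 25% rule without mock replicate 3, at -0.56. Mknk1 differed by -0.39, Mapkapk3 by -0.19, Rps6ka3 (RSK2) by -0.00078 and Mapkapk2, the p38 target kinase, by 0.34, none past the threshold. Mknk1 passed the 25% rule without mock replicate 2, at -0.60. The tier median was -0.19.

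Sorted by branch instead of by tier, the ERK genes gave 8 of 9 lower with a median log2 difference of -0.16 after quantile normalization, but 4 of 9 lower with a median of 0.020 with arrays scaled to their medians. The JNK genes gave 4 of 6 lower with a median of -0.14, and 3 of 6 with a median of -0.090 under that scaling. Of the 4 detected members of the p38 branch 1 was lower in both, with medians of 0.070 and 0.29. The p38 genes Mapk11, Mapk12 and Mapk13 are outside the member list and were not counted here. They were lower after quantile normalization, by -0.74, -0.82 and -0.17. The 2 ERK5 genes detected in both groups differed by -0.046 and 0.048, and both were higher with arrays scaled to their medians. Across these branches the genes that changed from lower to higher with that scaling were Nras, Map2k2, Mapk3, Rps6ka3, Map2k7 and Map3k3. Under that scaling the median of all probes detected in both groups was 0.075, against -0.010 after quantile normalization. The differences between branches were not tested.

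**Figure D3:**
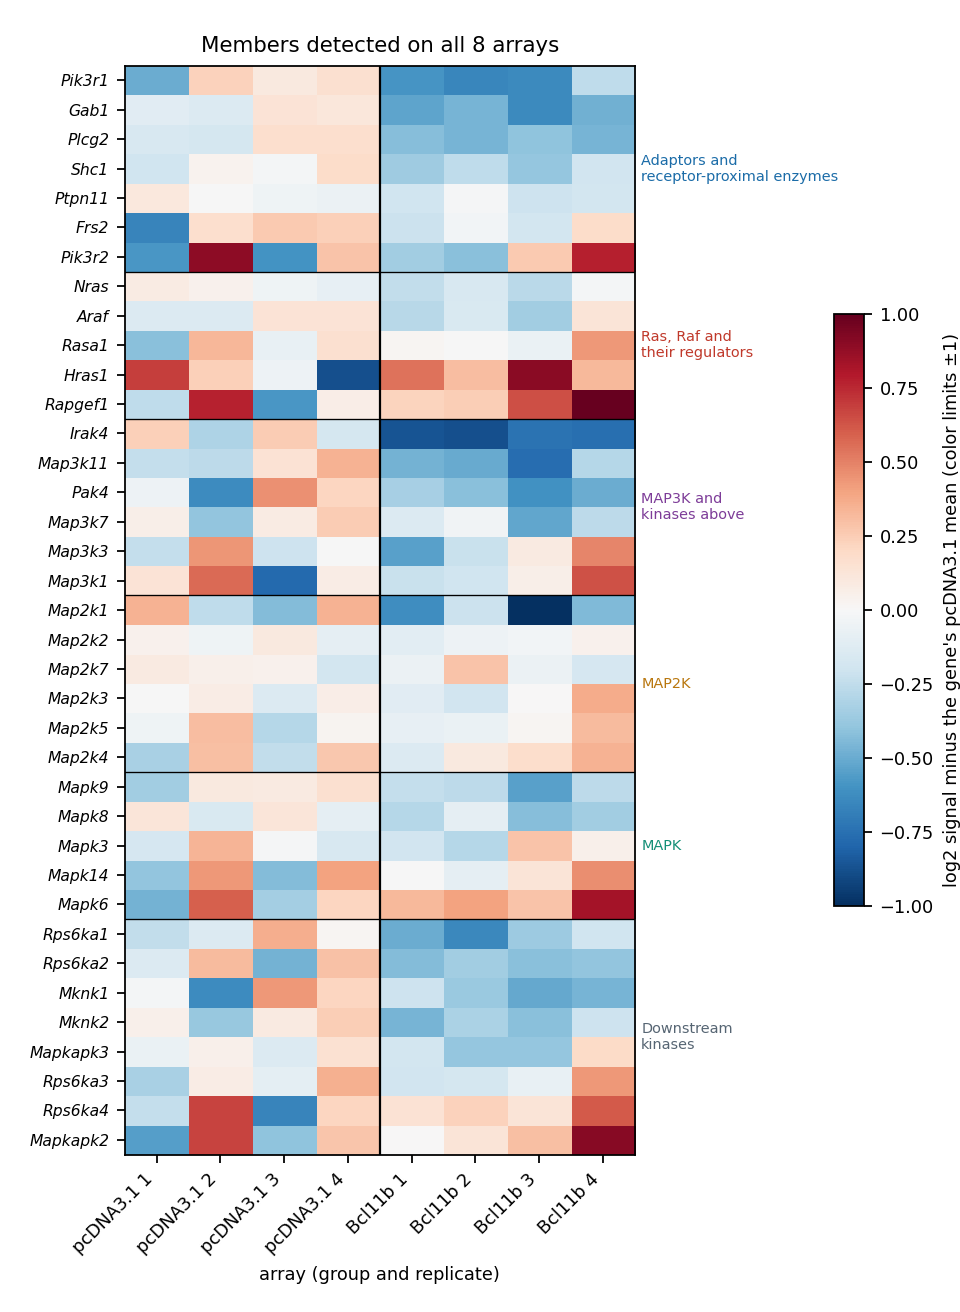
Log2 signal minus the gene's mock mean (color, limits ±1) for the 37 members detected on all 8 arrays, by tier, with arrays as columns. Gab1, Plcg2, Irak4 and Map3k11 are blue on all 4 Bcl11b arrays, and mock replicates 1 and 3 are often blue where mock replicates 2 and 4 are red.

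The arrays within a group were not alike for these genes. Among the 37 members detected on all arrays, mock replicates 1 and 3 both lay below mock replicates 2 and 4 in 17 (45.9%), against 25.7% of the 7107 genes so detected, and both above in 3 (8.11%), against 25.2%. Mapkapk2 showed the order clearly, with mock signals of 10.59, 11.81, 10.74 and 11.41, as did Mapk14, with 10.75, 11.58, 10.71 and 11.55. The 3 genes of the opposite order were Irak4, Map2k2 and Mapk8. Bcl11b replicate 4 was the highest of its group in 23 of the 37 (62.2%), against 48.9% of all genes. The mock group had the larger SD in 27 members (73%), against 62.8% of all genes. The median SD over the members was 0.29 in the mock group and 0.20 in the Bcl11b group. What made the mock replicates differ in this way was not tested. Gab1 and Plcg2 did not follow the split, since their mock replicates 1 and 2 were lower and 3 and 4 higher.

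Several members were measured by more than 1 detected probe, and these did not always give the same picture. Of 9 genes with several probes detected in both groups, 7 had probes that differed in sign (Araf, Map2k2, Map2k7, Mapk3, Mapk9, Pik3r2 and Ptpn11). Ptpn11, lower on its brightest probe, was higher on a dimmer one, with log2 signals of 8.94, 9.25, 9.31 and 9.11 on the mock arrays and 9.32, 9.36, 9.56 and 9.66 on the Bcl11b arrays. Here all Bcl11b arrays lay above the mock arrays, the difference was 0.33 (SE 0.11, adjusted p = 0.373), past the 25% rule, and the remaining detected probe gave 0.19 (adjusted p = 0.530). Over all probes of the array 3.2% were higher and 5.81% lower by this rule. Map2k2 was 0.69 (SE 0.24, adjusted p = 0.374) higher, past the 25% rule, on a dimmer probe whose mock signals were 8.37, 8.05, 7.41 and 7.61 and whose Bcl11b signals were 8.61, 8.34, 8.86 and 8.40. The groups overlapped on that probe through mock replicate 1 and Bcl11b replicate 2. Map2k7 had a dim second probe, detected on 2 mock and all 4 Bcl11b arrays, with a difference of 1.11 (SE 0.69, adjusted p = 0.700).

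For the lower members, the second probe of Pik3r1 gave -0.33 (SE 0.19, adjusted p = 0.671), in the same direction but not past the threshold. The second probe of Mapk9 gave -0.021 (SE 0.31), with mock signals of 8.09, 8.89, 8.44 and 8.58 and Bcl11b signals of 8.26, 8.16, 8.19 and 9.31. Another, detected on 2 arrays of each group, gave 2.1e-05 (SE 0.27). The call for Mapk9 therefore rested on 1 of 3 detected probes. Irak4's second probe was detected on 1 mock array only and allowed no fold. The other detected probes of Araf, Mapk3 and Pik3r2 differed by 0.24, 0.096 and -0.26, none past the threshold. Mapk6 was higher on all 3 of its detected probes, by 0.46, 0.18 and 0.16, and passed on none. Shc1's second probe was detected on 1 Bcl11b array only and also allowed no fold. Which transcripts each probe reads is not given in the deposited table, which pairs probes with symbols only.

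**Figure D4:**
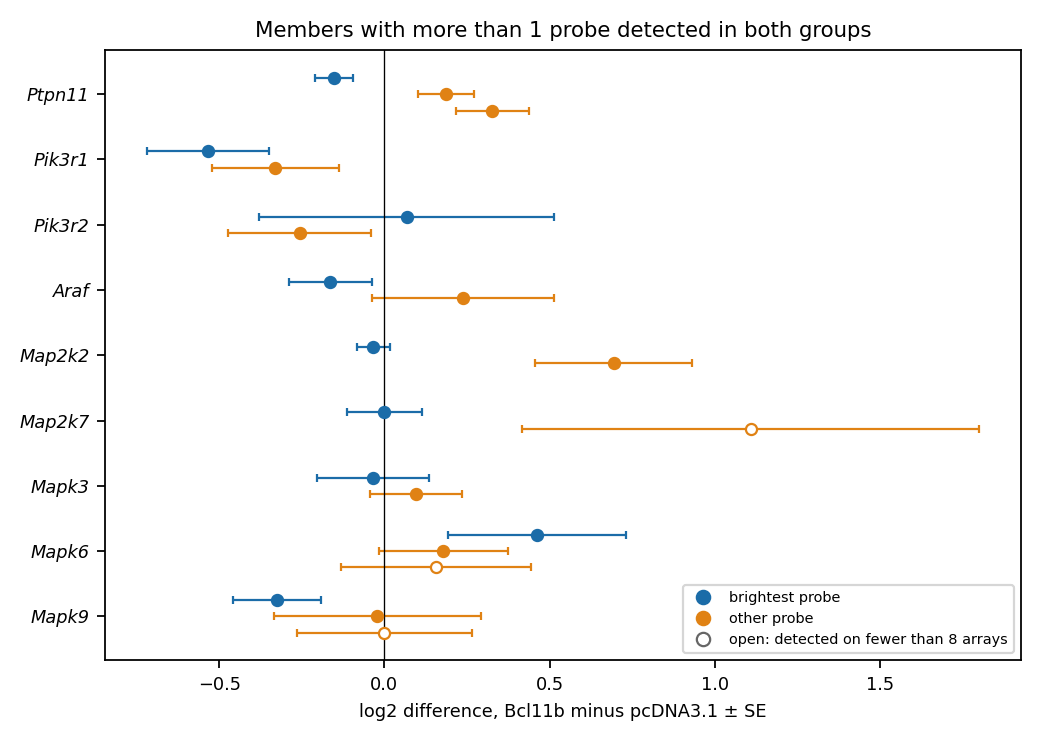
Log2 difference ± SE (horizontal axis) for each probe detected in both groups, for the 9 members that have more than 1, with the brightest probe in blue and others in orange; open points were detected on fewer than 8 arrays. The probes of Ptpn11 and Map2k2 lie on opposite sides of 0, and only the brightest probe of Mapk9 lies away from 0.

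Related genes outside the member list were counted in the same fit. Of 52 further genes of the cascade, 45 were on the table and 30 detected, and 7 of these 30 (23.3%) were lower by the 25% rule and none higher, against 11.9% and 3.89% of all detected genes. With arrays scaled to their medians 7 were lower and 2 higher, against 7.23% and 7.77% of detected probes. This list, too, was chosen with earlier results of these data known. Mapk12, which encodes p38 gamma, passed the adjusted threshold. Its log2 signals were 10.08, 9.98, 10.21 and 10.29 on the mock arrays and 9.35, 9.28, 9.18 and 9.47 on the Bcl11b arrays, without overlap, a difference of -0.82 (SE 0.088, adjusted p = 0.0283). Mapk11, which encodes p38 beta, was lower by -0.74 (SE 0.16, adjusted p = 0.174), also without overlap, beside the 0.13 of the member Mapk14. The scaffold gene Mapk8ip1, which assembles the JNK module, was at -1.29 (SE 0.50, adjusted p = 0.449), Map3k6 at -0.48, the Ras relative Rras2 at -0.40 and the adaptor Nck2 at -0.39. Pak1, detected on 3 mock arrays and on none after Bcl11b transfection, was at least 1.09-fold lower. Next to Irak4 in its pathway, Irak1 differed by -0.55 (adjusted p = 0.559), Myd88 by -0.27 (adjusted p = 0.431) and Traf6 by -0.047.

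Of 16 transcripts on the table that are known to follow ERK activity, 13 were detected. After quantile normalization 2 of them were higher (15.4%) and 2 lower (15.4%) by the 25% rule, against 3.89% and 11.9% of all detected genes. With arrays scaled to their medians 4 were higher and 0 lower, against 7.77% and 7.23% of detected probes. Fos, an immediate early gene, rose 3.03-fold, from 7.86, 7.45, 7.29 and 7.51 on the mock arrays to 9.05, 9.22, 8.96 and 9.26 on the Bcl11b arrays (log2 difference 1.60, SE 0.13, adjusted p = 0.0137 in limma). Dusp6, the phosphatase that acts on ERK, was higher by 0.40 (adjusted p = 0.371) with no overlap. Dusp4, another MAP kinase phosphatase, was at -0.34 (adjusted p = 0.438) and Spred1, an inhibitor of Ras signaling, at -0.40 (adjusted p = 0.460). Dusp4 and Spred1 no longer passed with arrays scaled to their medians, at -0.28 and -0.34. Egr1 and Phlda1 were at 0.21 and 0.25 and passed with that scaling, at 0.49 and 0.65, while Etv4, Etv5 and Ccnd1 passed in neither.

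Over the 18 settings tried, which comprised the analysis above, 9 alternatives and 8 fits that each left out 1 array, 3 members passed the 25% rule as lower in all of them: Gab1, Plcg2 and Irak4. In the setting with another probe, Pik3r1 and Mapk9 were the lower members with another probe detected in both groups, and the others kept their own value. Map3k11 passed in 14, Rps6ka1 in 12, Pik3r1 in 11, Mknk2 in 8 and Mapk9 in 6. The adjusted p-value of Gab1 ran from 0.0322 to 0.272 and was under 0.10 in 6 of the 18, and that of Irak4 ran from 0.0443 to 0.294 and was under 0.10 in 4.

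**Figure D5:**
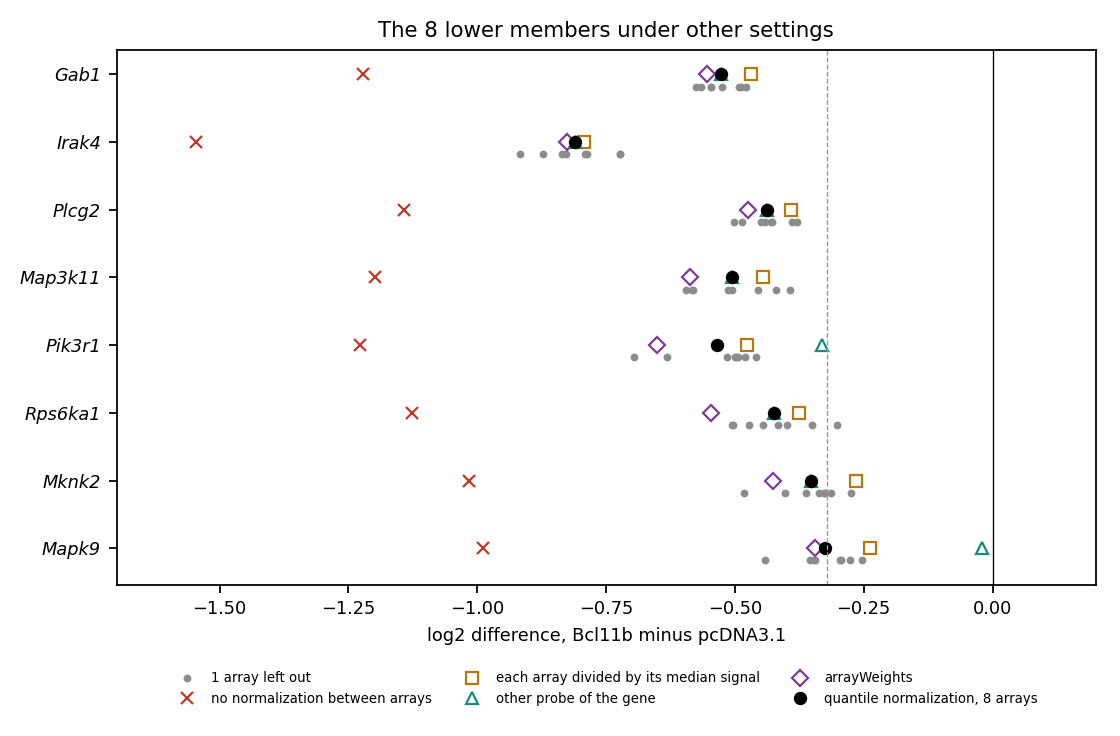
Log2 difference (horizontal axis) of the 8 lower members with quantile normalization (black), without normalization (red crosses), after division by the array median (squares), with array weights (diamonds), on another probe (triangles) and with 1 array left out (grey points); the dashed line marks the 25% limit. Every value is below 0, and those of Gab1, Irak4 and Plcg2 lie beyond the dashed line throughout, while Mapk9 lies near 0 on its other probe.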

How the data were processed

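Total RNA of the 8 cell sets was hybridized to Illumina MouseRef-8 v2 arrays. The authors deposited 1 background-subtracted intensity per probe from GenomeStudio, without normalization between arrays, and a detection p-value per probe, which was also deposited and was used at a limit of 0.01. No depth applies to arrays, and their number limits the precision. Intensities were quantile-normalized, set to at least 1 and transformed to log2. All 25697 probes were fitted with limma (version 3.58.1, R 4.3.3), lmFit and eBayes without covariates, with Benjamini-Hochberg adjustment. The calls were an adjusted p-value under 0.10, and p under 0.05 with the brighter group at least 25% above the other. Groups and replicate numbers came from the sample titles. The steps were tested on simulated data.

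The members and lists were chosen with earlier results of these data known. Values on every array are given for members past a call, for the genes of the study's neurotrophin and pathway drawings, for the member with the highest mean signal of each tier and, where probes of a gene differ, for those that passed. A few members with 1 array apart were added after their values were seen. Where every array of 1 group lacked detection, a lower bound was computed against the dimmest detected signal. Alternatives were an offset of 16, neqc, no normalization, scaling to array medians, detection on at least 4 arrays, limma-trend with robust eBayes, arrayWeights, a replicate block, another probe of the gene, and fits without 1 array. A slide block was not run, since the deposited table gives no slide. Promoter letters came from RefSeq on GRCm38.p6.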

Additional observations from a re-analysis of the deposited data

Results flagged for a closer look

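In 6 of the 78 sets of 4 arrays examined (7.69%), 1 array stood apart from the other 3 of its group by more than Dixon's critical value, where chance gives about 1 in 20. Frs2 was at 8.93 on mock replicate 1 and between 9.76 and 9.85 on the other mock arrays. Ptpn11 was at 13.04 on Bcl11b replicate 2, against 12.84 to 12.86 on the others. For Pik3r1, Bcl11b replicate 4 was at 9.59 and the others between 9.19 and 9.26. Map2k7 was at 9.09 on mock replicate 4, against 9.32 to 9.36. Mapk9 was flagged in both groups, at 10.62 on mock replicate 1 against 11.06 to 11.13, and at 10.43 on Bcl11b replicate 3 against 10.71 to 10.73. Left out one at a time, these arrays moved the log2 difference of Mapk9 to -0.44 without mock replicate 1 and to -0.25 without Bcl11b replicate 3.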

How the results depend on the processing

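Without normalization between arrays the median of all probes detected in both groups was -0.68, and the members moved with it. By the 25% rule 26 members passed as lower, where 48.4% of all probes detected on at least 1 array did so. The adjusted threshold was passed by 0 members. The member median was -0.72, which is -0.046 relative to all probes. The medians from adaptors to downstream kinases were -0.76, -0.40, -1.06, -0.62, -0.73 and -0.93. Reversed there were Grb2 (-0.58), Hras1 (-0.21), Map2k3 (-0.42), Map2k4 (-0.49), Map2k5 (-0.66), Map3k1 (-0.64), Mapk14 (-0.51), Mapk6 (-0.036), Mapkapk2 (-0.31), Pik3r2 (-0.63), Rapgef1 (-0.11), Rasa1 (-0.40), Rps6ka4 (-0.34) and Rps6ka5 (-0.12). After division by the array median 0 members passed the adjusted threshold, 4 were lower and 2 higher by the 25% rule, the medians of adaptors, Ras/Raf genes and MAP2K were -0.0053, 0.35 and 0.13, and Frs2 (0.0069), Map2k2 (0.17), Map2k7 (0.057), Map3k3 (0.029), Mapk3 (0.020), Nras (0.15), Ptpn11 (0.16) and Rps6ka3 (0.057) reversed. The members past the adjusted threshold numbered 2 with neqc (Gab1 and Irak4), 0 with limma-trend and 4 with arrayWeights (Gab1, Plcg2, Pik3r1 and Irak4), and 1 with detection on at least 4 arrays, which was Irak4 and not Gab1. With arrayWeights the member median was -0.21, and Map2k3 (-0.088), Map2k4 (-0.0085), Map2k5 (-0.019), Map2k7 (0.066), Map3k1 (-0.055), Mapk14 (-0.014), Pik3r2 (-0.22) and Rasa1 (-0.013) reversed. With another probe 2 members were higher by the 25% rule (Ptpn11 and Map2k2), and Araf (0.24), Map2k2 (0.69), Mapk3 (0.096), Pik3r2 (-0.26) and Ptpn11 (0.33) reversed. After division by the array median the median of all probes detected in both groups was 0.075, and the member median lay 0.046 below it. The cause of these changes was not tested. The count of all probes past the adjusted threshold was 252, and 57 without normalization, 146 with median division, 413 with neqc, 45 with limma-trend and 642 with arrayWeights.

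Leaving out 1 array gave 0 to 4 members past the adjusted threshold (4 without mock replicate 2), 3 to 10 lower and 0 to 4 higher by the 25% rule (the 4, without mock replicate 2, include Mapk7, which none of the remaining arrays detected), with all-probe counts from 87 to 637. Of all probes detected on at least 1 array, 6.89% to 13.5% were lower and 2.88% to 7.72% higher by the 25% rule in these fits. The member median ran from -0.17 to -0.010, and the medians from -0.32 to -0.20 for adaptors, -0.042 to 0.21 for Ras/Raf genes, -0.48 to -0.26 for the MAP3K tier with Irak4 and Pak4, -0.051 to 0.039 for MAP2K, -0.14 to 0.079 for MAPK and -0.32 to -0.12 for downstream kinases. Single genes whose sign changed ran from -0.16 to 0.40 (Grb2), -0.28 to 0.026 (Frs2), -0.17 to 0.37 (Pik3r2), -0.042 to 0.21 (Rasa1), -0.19 to 0.26 (Map3k1), -0.22 to 0.12 (Map3k3), -0.10 to 0.083 (Map2k3), -0.048 to 0.15 (Map2k5), -0.096 to 0.056 (Map2k7), -0.14 to 0.079 (Mapk3), -0.019 to 0.27 (Mapk14) and -0.15 to 0.12 (Rps6ka3). Of all single-gene values under other settings, 518 kept their direction and side of the threshold.

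With the replicate number as a block, 0 members passed the adjusted threshold, which 45 probes passed in all. By the 25% rule 6 members were lower, beside 8.58% of all probes detected on at least 1 array. The labels do not say whether the numbers pair the sets. Over 9360 probes, the deviations of same-numbered arrays from their group means correlated at 0.68, -0.63, 0.18 and 0.70. Not every array correlated best with its own number. Over all pairs of a mock and a Bcl11b array the correlations ran from -0.77 to 0.70, so these values cannot decide the pairing.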
